A study of Mus musculus with 24 samples.

Results

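The comparison described here is the response to DEN and TCPOBOP in the livers of female mice that lack Foxa1 and Foxa2. Its members are the 4 arrays of treated females of the genotype labelled dKO and the 4 arrays of untreated dKO females, 8 of the 24 arrays of the series, and they were chosen by the sex, genotype and treatment in the sample names. The treated dKO females were given N-nitrosodiethylamine (DEN) at 20 mg/kg when 14 to 15 days old. From 2 weeks after that injection they received the CAR agonist TCPOBOP at 3 mg/kg, repeated at 2-week intervals to 8 injections. The untreated dKO females are labelled only as untreated, and no label says whether they were given vehicle. Treated and untreated wild-type females, 4 arrays each, were set beside them, and treated males of both genotypes entered the model fit only. Both dKO groups carry the same genotype label, and the loss of Foxa1 and Foxa2 is taken from the title of the series. The alleles, the Cre driver and the age at collection are in none of the labels. The labels call the tissue of every sample a liver tumor, the untreated ones included, and the extraction protocol speaks of liver samples and of sorted cells without saying which sample was which. They also do not say whether the 4 replicates of a group came from separate animals, so the p-values measure only the spread between these samples.

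DEN is activated in hepatocytes to a compound that alkylates DNA and starts liver tumours in young mice. TCPOBOP is a ligand of the constitutive androstane receptor (CAR, gene Nr1i3), a nuclear receptor that switches on drug-metabolising enzymes such as Cyp2b10, makes hepatocytes divide and promotes tumours started by DEN. Foxa1 and Foxa2 are forkhead transcription factors that open chromatin at liver genes and act there with nuclear receptors, among them the oestrogen receptor. Female mice are normally less prone than males to liver tumours after DEN, and the title of the series places the loss of both factors in that setting.

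Each array was a 1-colour Agilent mouse array hybridised with Cy3-labelled cDNA. A level below is the log2 processed signal of a gene's brightest probe minus the 75th percentile of that array, so 0 is a bright gene and a level near -6 or under is usually at background. A difference is treated minus untreated on this log2 scale, with its standard error (SE) from 1 limma fit to all 24 arrays, and a gene rose or fell only where its p-value, Benjamini-Hochberg adjusted over 19035 genes, was under 0.05. Albumin (Alb), the main hepatocyte secretory product, was the check of the tissue: its level was 9.56, 8.99, 9.59 and 9.22 on treated arrays 1 to 4, against 9.62, 9.80, 9.66 and 9.79 on the untreated ones. Foxa1 was not above background on any of the 8 dKO arrays, while it was above background on every wild-type female array, at a mean level of -3.15 in treated and -2.30 in untreated females. Foxa2 had a level of -5.20, -7.32, -5.48 and -6.24 in treated dKO females, against -1.93, -7.12, -3.77 and -3.14 in untreated dKO females. In wild-type females its mean was 4.01 treated and 4.45 untreated. Both genes were therefore far lower in the dKO arrays than in wild type, as labelled, and signal left on some untreated dKO arrays differed from array to array. Foxa2 was called lower in treated than in untreated dKO females (-2.07 ± 0.77, adjusted p = 0.0398), a call lost without replicate 4 (adjusted p = 0.263). Foxa1 was also called lower (-1.055 ± 0.277, adjusted p = 0.00574; 0.0707 without replicate 4), but it was at background on every dKO array, so its value gives no size. Foxa3, the third family member, had a difference of -0.30 ± 0.27 (adjusted p = 0.409).

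The arrays differed in ways that touch every count below. The 4 treated dKO arrays were less alike (correlation of levels between 0.933 and 0.985) than the 4 untreated ones (0.980 to 0.990). On the first principal component, which held 58.6% of the variance of the 8 arrays, treated arrays 1 to 4 lay at 41.1, 124, -1.29 and 64.4, and the untreated ones at -50.3, -67.6, -52.4 and -57.4. Treated replicate 2 thus lay farthest from the untreated arrays and treated replicate 3 nearest to them. Replicate 4 stood apart in another way. Among genes above background on all 4 treated arrays whose levels spanned over 2 log2 units (1497 genes), replicate 4 lay a median of 0.193 from the log2 mean signal of the other 3, while replicates 1, 2 and 3 lay 0.864, 1.80 and 1.51 from the mean of their others, and 98.2% of its values fell within the range of the others. The same held for replicate 4 of the untreated dKO group (a median of 0.111, over 134 genes) and of both wild-type female groups (0.255 treated and 0.263 untreated). It also held for replicate 4 of treated wild-type males (0.131), but not for that of treated dKO males (0.837). The labels give replicate 4 as a sample like the others; whether it holds RNA mixed from replicates 1 to 3 was not tested. If it does, p-values that count it as a separate sample are too small. Counts are therefore given with and without replicate 4 of every group, and those in dKO females also without treated replicates 2 and 3. Fits without that pair, or without treated replicate 2 alone, keep replicate 4. If replicate 4 holds RNA mixed from the others, these fits still carry signal of the arrays left out. A value that stands out on replicates 2 and 4 may then rest on replicate 2 alone. All 4 arrays of treated dKO females sat at array position 4 of their slides and no untreated dKO array did. Within these 8 arrays position and treatment cannot be told apart. With position as a covariate 255 genes passed. In that fit the effect of position 4 was estimated from treated dKO males, which sat at positions 3 and 4. The spike-in slope was 0.923 to 0.985 on the treated dKO female arrays, against 1.01 to 1.03 on the untreated ones, and its part in the results was not tested. More spots were above background on treated dKO female arrays (65.0% to 68.4%) than on untreated ones (50.4% to 64.6%). The part of this difference in the results was not tested.

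A large part of the dKO transcriptome differed between treated and untreated arrays, which also differed in array position. By the limma fit 7208 of 19035 genes (37.9%) passed, 3106 higher (16.3%) and 4102 lower (21.5%) in treated than in untreated dKO females, with 1630 of the higher and 979 of the lower ones changed at least 2-fold. The excess of lower calls depended on the scaling and the arrays: quantile normalization gave 3639 higher and 3609 lower genes, median centring 2547 and 4732, and the fit within the 3 slides that hold both groups 1378 and 1090. The median difference over all genes was -0.07. Without treated replicates 2 and 3 the fit called 5938 genes (31.2%), 2414 higher (12.7%) and 3524 lower (18.5%). Of these, 2311 and 3360 were also called in the same direction with all arrays, which is 95.7% and 95.3% of the calls without the pair and 74.4% and 81.9% of the calls with it. Without replicate 4 of any group 2522 genes passed (13.2%), 1142 higher (6%) and 1380 lower (7.25%), and 1140 and 1376 of them were also called in the same direction with all arrays. Treated replicate 1 alone, set against untreated replicates 1 to 3, still gave 653 calls, 273 higher and 380 lower, with the spread of the single treated array assumed to be that of the other groups. In 5986 genes (31.4%) the treated and untreated levels did not overlap. In what follows a count of list members is read against these shares of all genes.

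**Figure D1:**
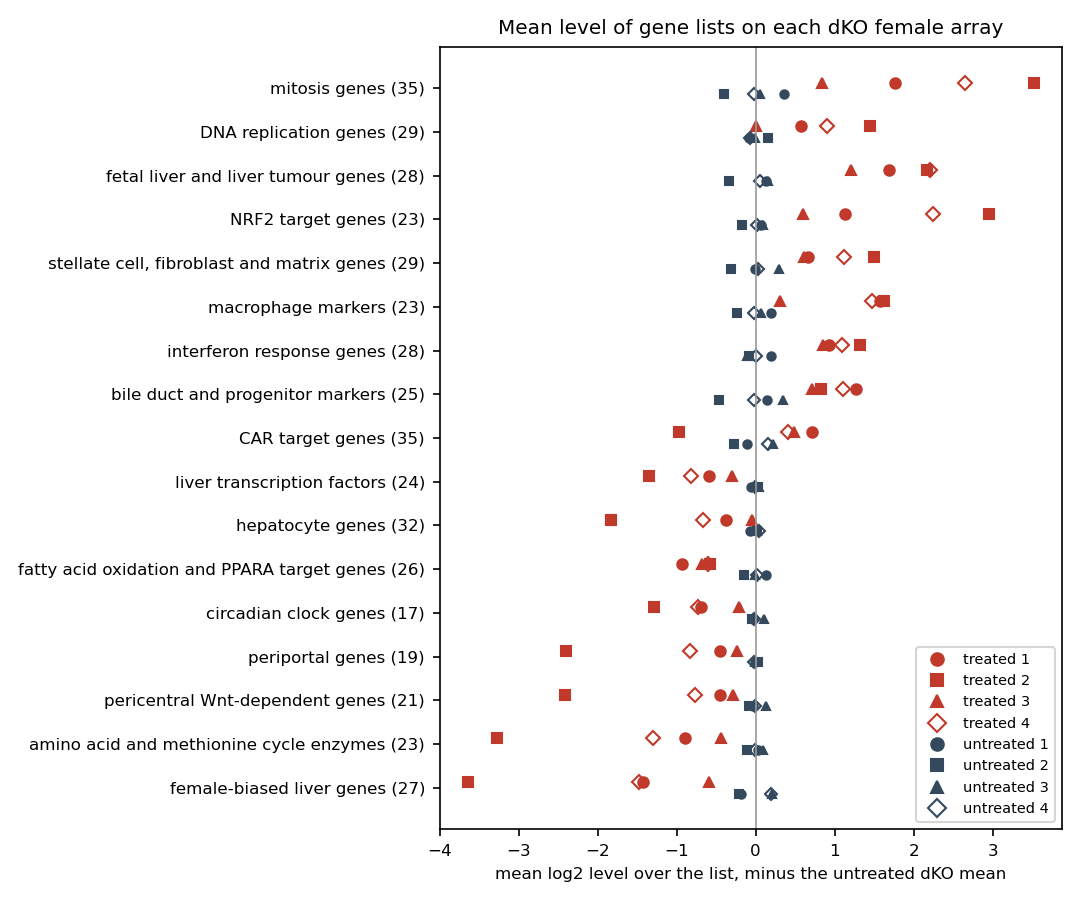
Mean log2 level over the genes of each list on each dKO female array, minus the mean of the 4 untreated arrays; red symbols are treated arrays 1 to 4 and dark symbols untreated arrays 1 to 4, open for replicate 4, with the number of genes that have a value on every array in parentheses. Treated replicate 2 (squares) lies farthest from the untreated arrays in most lists and treated replicate 3 (triangles) nearest, as for the mitosis genes, whose mean level was -0.09 and -2.77 on these arrays.

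The genes that rose most were a mixture of detoxifying enzymes, fetal growth genes and genes with little signal in untreated liver. Of the 12 highest by fold, ENSMUST00000098718, a probe for a transcript the files name only by this identifier, was at background on all 4 untreated arrays and rose at least 75.4-fold (adjusted p = 5.16e-05). Ptges, the inducible prostaglandin E synthase, rose by 6.2 in dKO females and by 6.71 in wild-type females, and Nebl, an actin-binding protein, by 5.62 in dKO and 6.69 in wild type. Nebl also passed in treated replicate 1 alone, with a difference of 7.03.

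Mgst2, a microsomal glutathione transferase, had 2.76, 5.33, 2.18 and 4.31 in treated dKO females, against -2.31, -3.12, -2.78 and -2.58 in untreated ones (6.34 ± 0.53, 81.1-fold, adjusted p = 2.47e-07). Cbr3, a carbonyl reductase, had 4.23, 8.13, 3.43 and 7.22 in treated and 0.39, -0.05, 0.46 and 0.19 in untreated dKO females (5.51 ± 0.67, adjusted p = 1.28e-05). For both genes treated replicates 2 and 4 were the highest. All 4 treated arrays lay above all untreated arrays, which the choice of the 12 highest genes required of each of them. Slc7a11, the cystine importer that feeds glutathione synthesis, was at background on all untreated dKO arrays and rose at least 22.2-fold. Serpina7, the thyroxine-binding globulin, rose by 5.71 ± 0.65 (adjusted p = 7.31e-06), Ubd, a ubiquitin-like protein induced by cytokines, by 5.72 ± 1.01 (adjusted p = 0.00034), and Trim12a, a TRIM family protein, by 5.74 ± 1.36 (adjusted p = 0.00291). Trim12a is the least even of these: its untreated levels were -5.87, -7.38, 1.85 and 0.33, all under the treated range of 2.75 to 3.28. H19 and Igf2 are also among the 12 and are described with the fetal genes.

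The genes that fell most were liver enzymes and genes of unknown role. Sult2a7, a sulfotransferase, had -2.11, -4.52, 2.73 and 0.84 in treated dKO females, against 5.8, 6.64, 6.39 and 6.24 in untreated ones (-7.03 ± 0.97, adjusted p = 4.57e-05). Cyp4a14, a fatty acid hydroxylase and PPARA target, had -0.28, -1.86, -0.98 and -1.05 in treated dKO females, against 4.92, 4.44, 4.84 and 4.55 in untreated ones (-5.73 ± 0.57, adjusted p = 2.05e-06). A1bg, a plasma protein made mostly by female liver, fell by 5.64 (SE 1.07, adjusted p = 0.000559), and Qdpr, which regenerates the cofactor of phenylalanine hydroxylase, by 4.73 (SE 0.97, adjusted p = 0.00102). In these 4 genes the losses were uneven across the treated arrays, with replicate 2 the lowest.

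A further 3 of the 12 were at background on every treated dKO array: LOC100046261, at least 91.8-fold lower, Ifi44l, an interferon-induced gene, at least 15.6-fold lower, and TC1691788, at least 12.6-fold lower. Ifi44l fell in wild-type females as well (-4.73, adjusted p = 4.05e-05). Others of the 12 were Lrrc19 (-4.99 ± 0.68), Htra4 (-4.66 ± 0.54), 1810046K07Rik (-5.41 ± 0.82) and 1810008I18Rik (-5.13 ± 0.84). All 24 genes also passed without treated replicates 2 and 3 and without replicate 4 of any group.

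**Figure D2:**
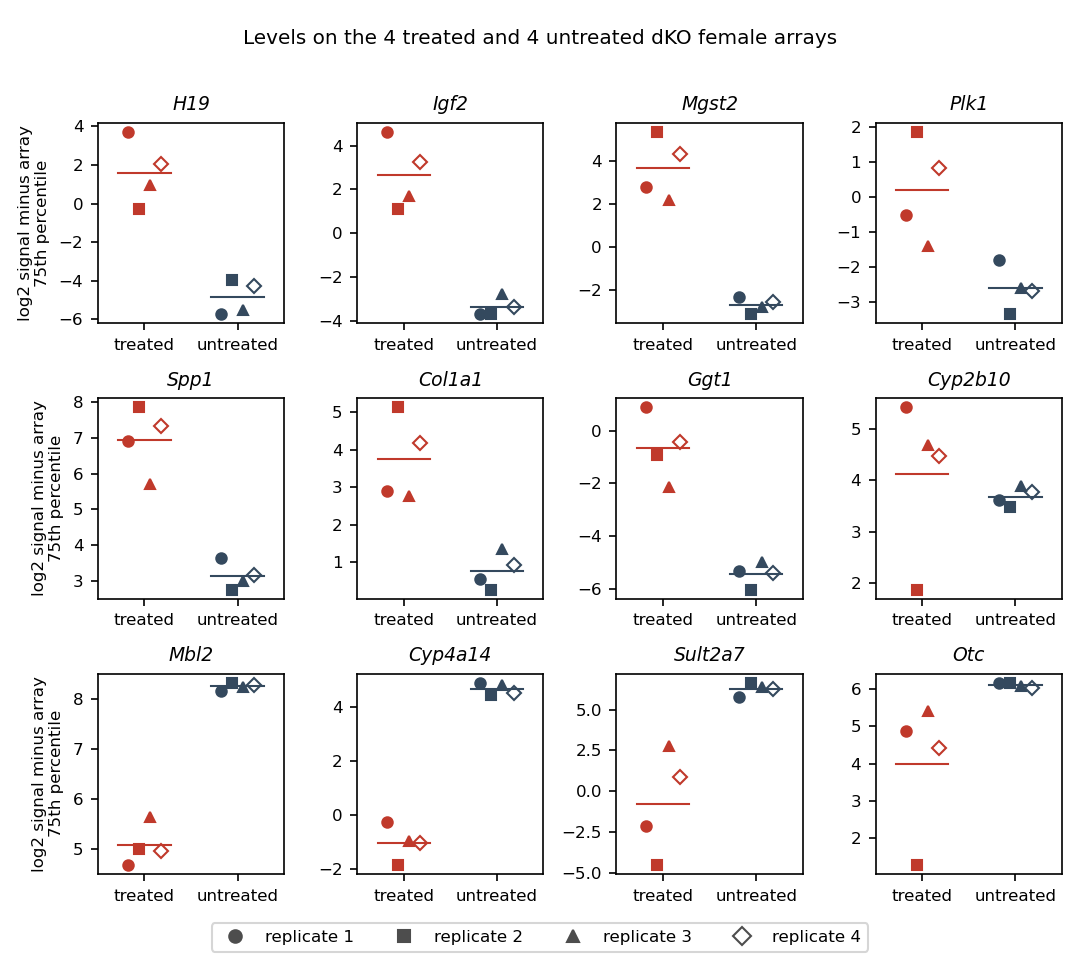
Level of 12 genes (log2 signal minus the array's 75th percentile) on the 4 treated (left, red) and 4 untreated (right, dark) dKO female arrays, with the group mean as a line and replicate 4 as an open symbol. H19, Igf2, Mgst2, Plk1, Spp1, Col1a1 and Ggt1 are higher on all 4 treated arrays, Mbl2, Cyp4a14, Sult2a7 and Otc are lower, and Cyp2b10 overlaps because treated replicate 2 lies at 1.88.

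Genes of mitosis rose almost as a block. Of 35 measured genes of the spindle and of cell division, 32 rose and none fell (against 16.3% of all genes higher), with a median difference of 2.27 against -0.07 over all genes. Without treated replicates 2 and 3, 31 rose (12.7% of all genes) with a median of 2.28, and without replicate 4, 22 rose (6% of all genes) with a median of 1.93. Treated replicate 1 against the untreated arrays gave a median of 1.80. The mean level of the list was -1.85, -0.09, -2.77 and -0.97 on treated arrays 1 to 4 and -3.25, -4.01, -3.56 and -3.64 on the untreated arrays. All 4 treated arrays lay above all untreated ones, with replicate 2 the highest.

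Plk1, the kinase that drives entry into and exit from mitosis, had a level of -0.51, 1.87, -1.40 and 0.85 in treated dKO females, against -1.82, -3.36, -2.61 and -2.68 in untreated ones (2.82 ± 0.50, 7.06-fold, adjusted p = 0.000347). Cdc20, an activator of the anaphase-promoting complex, had 1.03, 2.87, -0.07 and 1.88 in treated dKO females, against -0.54, -1.21, -1.10 and -1.0 in untreated ones (2.39 ± 0.45, 5.24-fold, adjusted p = 0.000548). In both genes the 2 groups did not overlap. Ccnb1, cyclin B1, was not above background on any untreated dKO array and had -3.19, -0.76, -4.44 and -1.77 on the treated ones, at least 5.67-fold higher (adjusted p = 9.45e-05). Its partner kinase Cdk1 rose by 2.05 ± 0.53 (adjusted p = 0.00494), a call that was lost without replicate 4 (adjusted p = 0.0907). Prc1, which bundles the central spindle, rose 9.89-fold (adjusted p = 4.13e-05), Hmmr, a spindle assembly factor, 10.7-fold (adjusted p = 0.0001) and Mki67, the chromosome coat protein used as a marker of dividing cells, 4.81-fold (adjusted p = 0.000332).

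The promoters of Plk1, Cdc20 and Ccnb1 are shown because genes that peak in mitosis share the CCAAT box (CCAAT, bound by NF-Y) and the cell cycle homology region (TTTGAA, bound by the DREAM complex and by B-Myb with FoxM1). Both were searched on both strands of the 300 bases from 250 before to 50 after the gene start in the RefSeq promoter table for GRCm38.p6, and the matches are in capitals.

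Plk1, chr7:122159185-122159484, plus strand: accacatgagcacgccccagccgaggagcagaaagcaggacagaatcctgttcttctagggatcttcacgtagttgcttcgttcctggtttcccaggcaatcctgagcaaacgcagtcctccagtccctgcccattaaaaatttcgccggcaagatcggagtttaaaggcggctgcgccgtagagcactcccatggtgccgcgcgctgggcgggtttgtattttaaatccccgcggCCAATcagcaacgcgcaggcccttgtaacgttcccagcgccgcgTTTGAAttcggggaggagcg

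Cdc20, chr4:118437294-118437593, minus strand: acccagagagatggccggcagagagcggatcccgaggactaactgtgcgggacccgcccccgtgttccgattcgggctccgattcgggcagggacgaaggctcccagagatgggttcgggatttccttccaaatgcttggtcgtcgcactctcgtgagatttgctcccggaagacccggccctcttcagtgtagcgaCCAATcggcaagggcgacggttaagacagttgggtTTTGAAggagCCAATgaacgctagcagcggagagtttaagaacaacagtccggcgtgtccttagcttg

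Ccnb1, chr13:100786437-100786736, minus strand: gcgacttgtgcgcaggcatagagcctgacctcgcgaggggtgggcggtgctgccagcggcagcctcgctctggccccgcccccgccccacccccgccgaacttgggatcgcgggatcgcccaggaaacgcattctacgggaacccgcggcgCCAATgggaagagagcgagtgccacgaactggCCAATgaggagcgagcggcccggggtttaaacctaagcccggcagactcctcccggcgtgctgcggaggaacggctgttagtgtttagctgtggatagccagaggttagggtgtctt

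Plk1 holds 1 CCAAT box and 1 TTTGAA, Cdc20 2 and 1, and Ccnb1 2 and 0. Of the 29 mitosis genes with a promoter in the table, 23 (79.3%) held a CCAAT box, 20 (69%) a TTTGAA and 19 (65.5%) both. Among the 12182 genes tested that have a promoter in the table the shares were 38.3%, 13.1% and 5.44%, and among all 27025 promoters 37.9%, 18.1% and 7.12%. The list was chosen for its function and not for its promoters; over all genes called higher in treated dKO females the shares were 37.5%, 13.1% and 5.88%, close to those of all genes tested.

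**Figure D3:**
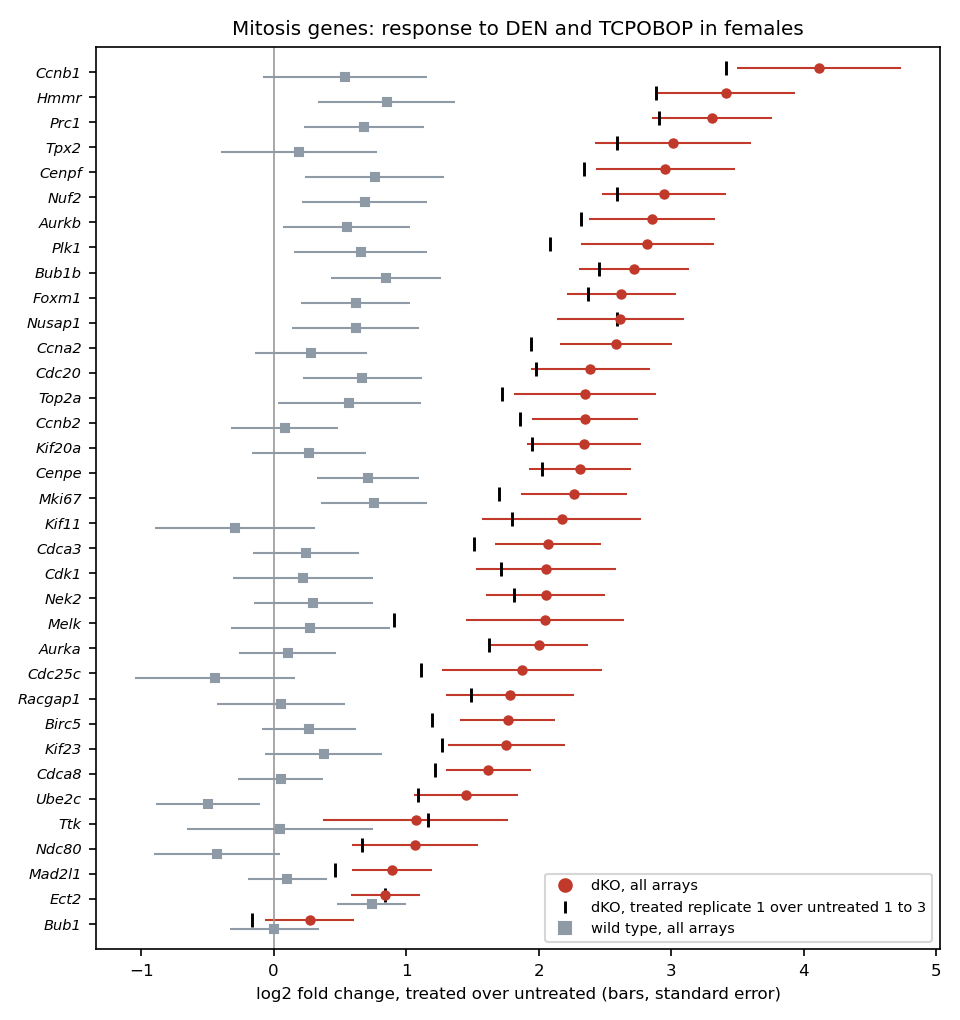
Difference in log2 level, treated minus untreated, for the 35 mitosis genes in dKO females (red circles, bars are SE), in treated dKO replicate 1 against untreated replicates 1 to 3 (black ticks) and in wild-type females (grey squares, bars are SE). The dKO differences lie to the right of those in wild type, where none of the 35 genes passed.

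Genes of DNA replication responded less evenly. Of 29 measured, 16 rose and 3 fell, with a median of 0.83; 17 rose and 3 fell without treated replicates 2 and 3, and 6 rose and 1 fell without replicate 4. Rrm2, the small subunit of ribonucleotide reductase, rose 8.12-fold (adjusted p = 0.000203), with -1.75, 0.97, -2.63 and -0.12 on treated arrays against -3.92, -4.42, -3.37 and -3.91 on untreated arrays. Uhrf1, which copies DNA methylation during replication, rose 4.63-fold (adjusted p = 0.000568). Of the cell growth regulators, Myc rose by 1.03 ± 0.25 (adjusted p = 0.0034; 0.0548 without replicate 4), while Ccnd1, cyclin D1, had 3.66, 2.78, 3.21 and 3.25 in treated dKO females, against 3.47, 4.2, 2.44 and 3.29 in untreated ones (-0.12 ± 0.32, adjusted p = 0.793).

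Genes of fetal liver and of liver tumours rose. Of 28 measured, 16 rose and none fell, with a median of 1.27, and 17 rose without treated replicates 2 and 3 and 10 without replicate 4. The largest changes were those of H19, a long noncoding RNA, and Igf2, a fetal growth factor, which are imprinted neighbours on chromosome 7. The H19 probe, which lies on the minus strand of mm9 at chr7:149761769-149761828, is shown because its signal is the measure of a noncoding RNA.

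H19 probe: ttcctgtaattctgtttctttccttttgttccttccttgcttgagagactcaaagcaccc

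H19 had a level of 3.70, -0.31, 0.95 and 2.07 in treated dKO females, against -5.72, -3.94, -5.50 and -4.25 in untreated ones (6.46 ± 0.85, 87.8-fold, adjusted p = 2.85e-05). Igf2 had 4.63, 1.11, 1.70 and 3.27 in treated dKO females, against -3.70, -3.68, -2.78 and -3.36 in untreated ones (6.05 ± 0.71, 66.5-fold, adjusted p = 8.85e-06). Here treated replicate 1 was the highest array and replicate 2 the lowest for both genes, unlike the mitosis genes, and replicate 1 alone gave 8.76 for H19 and 8.02 for Igf2. Of 13 imprinted fetal growth genes 7 rose and 1 fell, 5 and 1 without treated replicates 2 and 3, and 3 rose without replicate 4. Afp, alpha-fetoprotein, had -1.11, 2.21, -1.0 and 1.14 in treated dKO females, against -2.23, -2.54, -2.10 and -2.39 in untreated ones (2.62 ± 0.52, adjusted p = 0.000799), most of it on replicates 2 and 4. Ly6d, a surface protein, rose 29.2-fold (adjusted p = 0.000176). Gpc3, the glypican used as a marker of human liver cancer, overlapped between the groups (0.20 ± 0.48, adjusted p = 0.78).

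Targets of NRF2, the transcription factor of the oxidative stress response, rose in 13 of 23 measured genes and fell in none (median 0.98), in 14 without treated replicates 2 and 3 (median 0.85) and in 6 without replicate 4. Besides Slc7a11, Cbr3 and Mgst2, Nqo1, a quinone reductase, rose by 1.73 ± 0.43 (adjusted p = 0.00412; 0.0818 without replicate 4). Nqo1 had 2.28, 4.63, 1.59 and 3.75 on treated arrays against 1.35, 1.0, 1.53 and 1.45 on untreated arrays, so its difference lay mostly on replicates 2 and 4. Gclc, the limiting enzyme of glutathione synthesis, was above the untreated range on replicates 2 and 4 alone. It had 3.93, 6.81, 3.57 and 5.81 in treated dKO females, against 3.91, 3.87, 4.15 and 4.30 in untreated ones (0.98 ± 0.45, adjusted p = 0.0942). Whether replicate 4 is a sample separate from replicate 2 was not tested. The list mean was 3.43, 5.25, 2.90 and 4.54 on treated and 2.36, 2.13, 2.39 and 2.31 on untreated dKO arrays. Of 23 p53 targets 6 rose and 2 fell, 5 and 1 without treated replicates 2 and 3, and none passed without replicate 4. Cdkn1a, the p53-induced cell cycle inhibitor p21, rose 7.51-fold (adjusted p = 0.00223; 0.0651 without replicate 4), with treated levels between -2.72 and 1.20, against -4.48 to -3.50 in untreated dKO females. Of 24 genes of sugar metabolism 8 rose and 3 fell (6 and 3 without treated replicates 2 and 3, 4 and 1 without replicate 4). Among them Hk2, the hexokinase of growing cells, rose 7.41-fold (adjusted p = 0.000436) and Pkm, the pyruvate kinase of non-hepatic tissue, 5.25-fold (adjusted p = 0.000996). Fgf21, a stress hormone of liver, rose 26.8-fold (adjusted p = 0.000386), with 0.75, 4.83, 0.38 and 3.71 in treated and -2.06, -1.66, -3.34 and -2.24 in untreated dKO females.

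CAR targets, the genes that TCPOBOP is known to induce, did not move one way. Of 35 measured, 11 rose and 10 fell, with a median of -0.03. Without treated replicates 2 and 3, 14 rose and 9 fell with a median of 0.32, and without replicate 4, 4 rose and 2 fell with a median of -0.03. Treated replicate 1 alone gave a median of 0.60. The mean level of the list was 5.08, 3.40, 4.85 and 4.78 on treated arrays 1 to 4, against 4.26, 4.10, 4.59 and 4.53 on untreated arrays. Replicate 2 was below every untreated array and the other 3 treated arrays were above them.

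Cyp2b10, the classical CAR target, had a level of 5.42, 1.88, 4.69 and 4.48 in treated dKO females, against 3.62, 3.48, 3.88 and 3.77 in untreated ones. With all arrays its difference was 0.43 ± 0.45 (adjusted p = 0.478), and without treated replicates 2 and 3 it was 1.26 (adjusted p = 0.0005). Cyp2c55, another induced cytochrome P450, had 3.26, -1.08, 0.83 and 1.77 in treated dKO females, against -1.16, -2.56, -1.07 and -1.45 in untreated ones (2.75 ± 0.62, adjusted p = 0.00194; 0.0531 without replicate 4). Akr1b7, an aldo-keto reductase that CAR also induces, rose by 2.51 ± 0.56 (adjusted p = 0.00202; 0.0554 without replicate 4), with treated replicate 2, at -1.52, inside the untreated range of -2.76 to -1.27. Abcc4, an exporter that NRF2 also controls, had 2.06, 4.42, 1.53 and 3.42 on treated arrays against -0.40, -0.24, 0.02 and -0.25 on untreated arrays (3.07 ± 0.42, adjusted p = 4.06e-05). So Cyp2b10, Cyp2c55 and Akr1b7 were lowest on the treated array on which Abcc4 was highest. CAR itself, Nr1i3, had 2.69, -0.81, 3.42 and 2.25 in treated dKO females, against 4.01, 4.11, 3.75 and 3.89 in untreated ones (-2.05 ± 0.53, adjusted p = 0.00495; -1.16 without treated replicate 2, and adjusted p = 0.0581 without replicate 4). Cyp3a11, a target shared with the pregnane X receptor, fell as well (-2.04 ± 0.52, adjusted p = 0.00441), by 1.15 without treated replicate 2, and had an adjusted p of 0.0573 without replicate 4.

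Many genes of differentiated hepatocyte functions were called lower in treated dKO females, among them enzymes of amino acid breakdown. Of 23 enzymes of amino acid and methionine metabolism 21 fell and none rose (against 21.5% of all genes lower), with a median of -1.41. Without treated replicates 2 and 3, 22 fell (18.5% of all genes) with a median of -1.07, and without replicate 4, 7 fell (7.25% of all genes) with a median of -1.45. The mean level of the list was 5.23, 2.85, 5.69 and 4.82 on treated arrays, against 6.15, 6.01, 6.22 and 6.11 on untreated ones. All 4 treated arrays were lower, and replicate 2 was the lowest.

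Tat, tyrosine aminotransferase, had 5.15, 1.60, 5.84 and 4.60 in treated dKO females, against 6.48, 6.49, 7.14 and 6.75 in untreated ones (-2.42 ± 0.57, adjusted p = 0.00278; -1.52 without treated replicate 2). Tdo2, the first enzyme of tryptophan breakdown, was more even, with 3.78, 3.37, 4.11 and 3.67 in treated and 5.21, 4.55, 5.32 and 5.04 in untreated dKO females (-1.29 ± 0.22, adjusted p = 0.000241). Hpd, the next enzyme after Tat, fell by 2.12 with all arrays (adjusted p = 0.0195), by 0.91 without treated replicate 2, and had an adjusted p of 0.101 without replicate 4. Gnmt, which disposes of excess methyl groups, fell by 2.10 with all arrays (adjusted p = 0.0112), by 1.03 without treated replicate 2, and had an adjusted p of 0.0777 without replicate 4.

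Of 32 general hepatocyte genes 19 fell and 1 rose (median -0.57), and 20 fell without treated replicates 2 and 3. Without replicate 4, 4 fell, when 7.25% of all genes did. The list mean was 6.72, 5.27, 7.05 and 6.42 on treated arrays, against 7.03, 7.11, 7.11 and 7.13 on untreated ones. Treated replicate 3 lay within the untreated range, and replicate 2 was the lowest. Albumin missed the threshold (-0.38 ± 0.15, adjusted p = 0.0581). Otc, a urea cycle enzyme, had 4.87, 1.29, 5.40 and 4.42 in treated dKO females, against 6.16, 6.15, 6.06 and 6.02 in untreated ones (-2.10 ± 0.53, adjusted p = 0.00424; -1.20 without treated replicate 2, and adjusted p = 0.0513 without replicate 4). In bulk tissue fewer hepatocytes and less RNA per hepatocyte cannot be told apart.

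The promoters of Tdo2 and Alb are shown as a gene of this list that fell and one that did not pass, since both hold a forkhead site, the kind of sequence that Foxa proteins bind. TGTTTAC and TGTTTGC were searched on both strands, and the match, in capitals, is the reverse complement of TGTTTGC in both.

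Tdo2, chr3:81975679-81975978, minus strand: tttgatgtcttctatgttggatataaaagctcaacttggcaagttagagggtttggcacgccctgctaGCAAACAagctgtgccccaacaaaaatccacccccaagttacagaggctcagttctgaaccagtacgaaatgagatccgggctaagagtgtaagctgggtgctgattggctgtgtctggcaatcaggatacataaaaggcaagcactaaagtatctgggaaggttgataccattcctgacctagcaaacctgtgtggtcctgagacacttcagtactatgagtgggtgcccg

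Alb, chr5:90460620-90460919, plus strand: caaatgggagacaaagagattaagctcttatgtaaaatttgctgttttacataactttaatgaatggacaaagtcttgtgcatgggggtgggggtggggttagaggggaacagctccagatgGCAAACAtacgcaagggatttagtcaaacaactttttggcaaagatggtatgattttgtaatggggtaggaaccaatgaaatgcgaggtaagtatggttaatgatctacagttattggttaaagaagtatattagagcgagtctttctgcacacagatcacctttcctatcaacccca

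Such a site was held by 11 of the 26 hepatocyte genes with a promoter there (42.3%), against 6.42% of the genes tested and 8.34% of all promoters. Among genes called lower in treated dKO females the share was 6.92%, and among those called higher 5.47%, so the site was about as common in both as in the genes tested.

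Transcription factors of the liver fell in 17 of 24 cases and rose in 1 (median -0.67); 15 fell without treated replicates 2 and 3 and 7 without replicate 4. Hnf4a, the central factor of hepatocyte identity, differed by -0.50 ± 0.17 (adjusted p = 0.0214), a call lost without treated replicate 2 (adjusted p = 0.102) and without replicate 4 (0.168). Ppara, the receptor that drives fatty acid oxidation, fell evenly, with 2.95, 2.42, 3.40 and 2.73 in treated dKO females, against 4.59, 4.34, 4.16 and 4.37 in untreated ones (-1.49 ± 0.19, adjusted p = 1.67e-05). Esr1, the oestrogen receptor alpha, had 0.46, -0.69, 1.09 and 0.34 in treated dKO females, against 1.77, 2.02, 1.98 and 2.29 in untreated ones (-1.71 ± 0.24, adjusted p = 4.52e-05).

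Of 26 genes of fatty acid oxidation and PPARA targets 13 fell and 1 rose; 12 fell without treated replicates 2 and 3 and 8 without replicate 4. Cyp4a10 had 2.11, 2.12, 2.77 and 2.06 in treated dKO females, against 5.93, 5.0, 6.06 and 5.61 in untreated ones (-3.39 ± 0.28, adjusted p = 2.35e-07). Ehhadh, a peroxisomal oxidation enzyme, had 2.94, 3.04, 3.57 and 3.15 in treated and 4.92, 4.96, 5.06 and 4.94 in untreated dKO females (-1.80 ± 0.16, adjusted p = 3.48e-07). In these genes treated replicate 2 was level with the others, unlike in the amino acid enzymes, and both passed in treated replicate 1 alone. Fgf21, the single member that rose, is a PPARA target that stress signals also induce.

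Genes of both zones of the lobule were among those called lower, at shares that came near that of all genes without replicate 4 (7.25%). Of 22 pericentral genes, which depend on Wnt signalling around the central vein, 14 fell and 2 rose (median -0.98); 10 fell and 3 rose without treated replicates 2 and 3, and 2 fell and 1 rose without replicate 4. Slc1a2, a pericentral glutamate transporter, had -0.74, -4.16, -0.62 and -1.38 in treated dKO females, against 1.81, 2.37, 2.35 and 2.14 in untreated ones (-3.89 ± 0.57, adjusted p = 7.83e-05). Of 19 periportal genes 12 fell and 2 rose (median -1.13); 10 fell without treated replicates 2 and 3 (median -0.70) and 2 without replicate 4. Of 24 bile acid genes 12 fell and 1 rose, 10 and 1 without treated replicates 2 and 3, and 3 and 1 without replicate 4. Cyp7a1, the limiting enzyme of bile acid synthesis, ranged from -1.65 to 4.75 on treated arrays and from 3.59 to 4.31 on untreated ones (-1.62 ± 0.81, adjusted p = 0.125), while Akr1d1, a reductase of the same pathway, fell by 2.46 (SE 0.53, adjusted p = 0.00143; 1.71 in replicate 1 alone, adjusted p = 0.091).

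Genes that female liver makes more of fell in 21 of 27 cases and rose in none (median -1.54). The highest difference in the list was 4.19, which missed the threshold. Without treated replicates 2 and 3, 19 fell (median -1.24), and without replicate 4, 10 fell. Besides A1bg, Cyp2b9 had 7.22, 4.10, 6.62 and 6.53 in treated dKO females, against 7.46, 7.48, 7.43 and 7.44 in untreated ones (-1.34 ± 0.41, adjusted p = 0.0141). Cyp2b9 fell by 0.66 without treated replicate 2, and Cyp3a41a, whose difference was -1.69 ± 0.47 (adjusted p = 0.0078), by 0.88 without it. Neither passed without replicate 4 (adjusted p = 0.0822 for Cyp2b9 and 0.0724 for Cyp3a41a). Of 24 male-biased genes 9 fell and 2 rose, 7 and 2 without treated replicates 2 and 3, and 2 fell without replicate 4, when 7.25% of all genes did. Of 14 genes of the growth hormone axis, which sets the sex bias of liver, 8 fell and none rose, and 7 fell without treated replicates 2 and 3 and 4 without replicate 4. Ghr, the growth hormone receptor, had 3.88, 3.30, 4.87 and 3.94 in treated dKO females, against 5.62, 5.56, 5.54 and 5.53 in untreated ones (-1.57 ± 0.23, adjusted p = 7.03e-05). Igf1, the hormone that its signal induces, fell by 0.98 (SE 0.19, adjusted p = 0.000588). Of 17 clock genes 12 fell and none rose (11 fell without treated replicates 2 and 3 and 5 without replicate 4), among them Per2 (-1.43 ± 0.25, adjusted p = 0.00029); the labels do not give the hour of collection, and its part was not tested.

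Secreted proteins of the innate defence were split. Mbl2, a mannose-binding lectin of the complement system, had 4.68, 5.0, 5.63 and 4.95 in treated dKO females, against 8.17, 8.33, 8.25 and 8.30 in untreated ones (-3.20 ± 0.16, 9.18-fold, adjusted p = 6.66e-11). The 4 treated levels lay within 1 log2 unit of each other, and the call held without replicate 4 (adjusted p = 5.15e-06) and in treated replicate 1 alone (adjusted p = 3e-05). Of 28 complement and coagulation genes 10 fell and none rose, and 9 fell without treated replicates 2 and 3 and 2 without replicate 4. Of 29 acute phase genes 14 rose and 5 fell, 11 and 3 without treated replicates 2 and 3, and 5 and 2 without replicate 4. Saa1, serum amyloid A, had 8.56, 8.75, 7.98 and 8.55 in treated and 6.33, 5.40, 5.75 and 5.84 in untreated dKO females (2.63 ± 0.70, adjusted p = 0.00609; 0.0725 without replicate 4), and Lcn2, a siderophore-binding protein, rose 17-fold (adjusted p = 0.00295; 0.0547 without replicate 4). Hamp, the iron hormone hepcidin, had 3.98, 0.21, 4.43 and 3.34 in treated dKO females, against 7.35, 7.31, 5.98 and 7.0 in untreated ones (-3.92 ± 0.63, adjusted p = 0.000153). Il6, the cytokine that induces the acute phase genes, was near background at -5.39 to -4.56 in treated and -6.65 to -5.35 in untreated dKO females; its adjusted p of 0.0476 was above 0.05 without treated replicates 2 and 3 (0.077) and without replicate 4 (0.199).

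Markers of other liver cells moved unevenly. Of 29 genes of stellate cells, fibroblasts and matrix 19 rose and 1 fell (median 0.99); 17 rose and 1 fell without treated replicates 2 and 3, and 12 rose and 1 fell without replicate 4. Col1a1, a chain of collagen I, had 2.90, 5.13, 2.77 and 4.17 in treated dKO females, against 0.55, 0.27, 1.34 and 0.91 in untreated ones (2.98 ± 0.43, 7.86-fold, adjusted p = 7.03e-05), and Col3a1 rose 3.20-fold (adjusted p = 0.000821). The list mean was 0.81, 1.65, 0.75 and 1.26 on treated and 0.13, -0.17, 0.44 and 0.18 on untreated dKO arrays. Of 23 macrophage markers 14 rose and none fell; 14 rose without treated replicates 2 and 3 and 3 without replicate 4. Trem2, a receptor of lipid-associated macrophages, had 2.43, 2.15, 0.83 and 1.79 in treated and -3.44, -2.07, -2.16 and -2.37 in untreated dKO females (4.31 ± 0.76, adjusted p = 0.000338), and Gpnmb, found in the same cells, rose by 4.53 ± 0.90 (adjusted p = 0.00082). Clec4f, a marker of resident Kupffer cells, and Adgre1 (F4/80), a general macrophage marker, did not pass (-0.55 ± 0.39, adjusted p = 0.286, and 0.18 ± 0.38, adjusted p = 0.744). The macrophage list mean was 2.82, 2.87, 1.55 and 2.71 in treated dKO females, against 1.43, 1.0, 1.31 and 1.22 in untreated ones, with treated replicate 3 nearest to the untreated arrays. Whether the number of these cells moved the mitosis and fetal gene lists was not tested.

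Interferon response genes rose in 16 of 28 cases and fell in none (median 1.29), in 14 without treated replicates 2 and 3 and in 10 without replicate 4. Oas1a, an antiviral RNA sensor, had 2.35, 2.41, 2.05 and 2.18 in treated and -0.06, -0.43, -0.18 and -0.30 in untreated dKO females (2.49 ± 0.33, adjusted p = 3.34e-05), and Ifit1 rose 3.89-fold (adjusted p = 0.000574). The treated arrays were close together in both genes, replicate 2 included. Of 20 endothelial markers 2 rose and 7 fell, 2 and 5 without treated replicates 2 and 3, and 4 fell without replicate 4; Clec4g, a lectin of liver sinusoids, fell by 1.55 (SE 0.27, adjusted p = 0.000267). Of 19 T and NK cell markers 1 rose and 1 fell (Zap70, -1.44 ± 0.24, adjusted p = 0.00019), 1 and 1 without treated replicates 2 and 3, and 1 fell without replicate 4, while Cd3e, the common chain of the T cell receptor complex, had -3.00, -3.07, -2.77 and -2.44 in treated and -2.84, -2.13, -2.02 and -2.14 in untreated dKO females (adjusted p = 0.217). Of 11 B cell markers 2 rose and 1 fell (1 and 1 without treated replicates 2 and 3), and of 12 neutrophil markers 4 rose (2 without them); without replicate 4 none of either list passed.

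Of 25 markers of bile duct and progenitor cells 10 rose and 1 fell (median 0.55), 11 and 1 without treated replicates 2 and 3, and 6 and 1 without replicate 4. Spp1, osteopontin, which duct cells and macrophages secrete, had 6.92, 7.86, 5.71 and 7.34 in treated dKO females, against 3.63, 2.75, 2.99 and 3.17 in untreated ones (3.82 ± 0.33, 14.1-fold, adjusted p = 3.48e-07). Ggt1, gamma-glutamyltransferase, a marker of altered foci in rat liver, had 0.88, -0.91, -2.13 and -0.43 in treated and -5.30, -6.02, -4.96 and -5.39 in untreated dKO females (4.77 ± 0.56, adjusted p = 8.56e-06). The duct keratins did not pass: Krt7 had 4.50, 1.26, 4.11 and 3.60 in treated dKO females, against 3.34, 2.97, 3.52 and 3.23 in untreated ones (0.10 ± 0.45, adjusted p = 0.881), and Krt19 differed by -0.35 ± 0.48 (adjusted p = 0.61). Krt23, another keratin of the list, fell 7.78-fold, with 2.49, 2.14, 2.05 and 2.10 on treated and 5.09, 5.07, 5.31 and 5.15 on untreated arrays (adjusted p = 7.09e-06).

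Of 14 genes of fat cells and lipid droplets 5 rose and 5 fell, 5 and 4 without treated replicates 2 and 3, and 2 and 1 without replicate 4. Cidea, a droplet protein that fatty liver also makes, rose 16.8-fold (adjusted p = 1.93e-05). Adipoq and Cfd, hormone and protease of fat cells, fell, but their untreated levels differed widely between arrays: Cfd had -0.56, -6.57, 2.02 and 0.79 there, against -8.06, -5.48, -7.16 and -6.44 in treated dKO females. Adipoq was at background on all treated arrays and at -3.06, -5.91, -0.39 and -1.71 on the untreated ones. Neither passed without replicate 4 (adjusted p = 0.0741 for Cfd and 0.0986 for Adipoq).

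The same treatment was compared in wild-type females to see where the dKO response differed. There 3268 genes passed (17.2%), 1612 higher (8.47%) and 1656 lower (8.7%); with arrays centred on their medians 37.8% of the called genes were higher, against 49.3% of them with the 75th percentile. Without replicate 4, 396 passed (2.08%), 204 higher (1.07%) and 192 lower (1.01%). Of the genes called higher in dKO females 859 were called higher in wild type (27.7% of the dKO and 53.3% of the wild-type calls), and of those called lower 1003 (24.5% and 60.6%). Opposite calls were rare, 30 higher in dKO and lower in wild type and 32 the other way. The 2 comparisons share no arrays, but they share the slides, the positions and the estimate of the spread.

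The difference between the 2 responses was tested as an interaction, which 981 genes passed (5.15%), 470 with a more positive and 511 with a more negative response in dKO. Of these, 644 were called in dKO females alone, 211 in wild-type females alone, 104 in both and 22 in neither. Without replicate 4 of any group 7 genes passed (0.0368%), with 1989 at an unadjusted p under 0.05, and leaving out replicate 1, 2 or 3 of every group instead, which removes as many arrays, gave 150, 526 and 2103 interaction calls. The lists below are therefore given with both genotypes' own counts.

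None of the 35 mitosis genes passed in wild-type females (median 0.28), and 8 had a more positive response in dKO by the interaction, among them Ccnb1 (adjusted p = 0.023, with no size since untreated dKO arrays were at background), Prc1 (2.63, adjusted p = 0.023) and Hmmr (2.56, adjusted p = 0.047). Of the replication genes 1 rose and 7 fell in wild type, and 9 of 29 passed the interaction, with Rrm2 at 2.78 (adjusted p = 0.028) and Uhrf1 at 2.20 (adjusted p = 0.037). Of the matrix genes 1 rose and 1 fell in wild type, and 5 passed the interaction, among them Col1a1 (2.13, adjusted p = 0.048). For H19 the wild-type difference was 2.28 (adjusted p = 0.0707) and the interaction 4.18 (adjusted p = 0.049), and for Igf2 they were 1.92 (adjusted p = 0.0671) and 4.13 (adjusted p = 0.022). None of these interactions passed without replicate 4. Interferon and macrophage genes rose in both genotypes: 23 of 28 and 14 of 23 in wild type, with 1 gene of each list passing the interaction, but without replicate 4 only 4 and 0 rose in wild type. Of 28 fetal and tumour genes 10 rose and 0 fell in wild type (median 1.09), and 1 rose without replicate 4. Of 24 liver transcription factors 10 fell and 1 rose there (median -0.53), and 4 fell without replicate 4. Of 25 duct and progenitor markers 7 rose and 2 fell there (median 0.64), and 2 rose and 1 fell without replicate 4. Of 26 PPARA targets 21 fell in wild type (median -0.99, against -0.49 in dKO females), and 9 did without replicate 4. Of the CAR targets 10 rose and 1 fell in wild type (median 0.57; 7 rose without replicate 4), and Cyp2b10 rose by 3.09 there (adjusted p = 0.000139), with an interaction of -2.66 (adjusted p = 0.02; 0.32 without replicate 4).

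**Figure D4:**
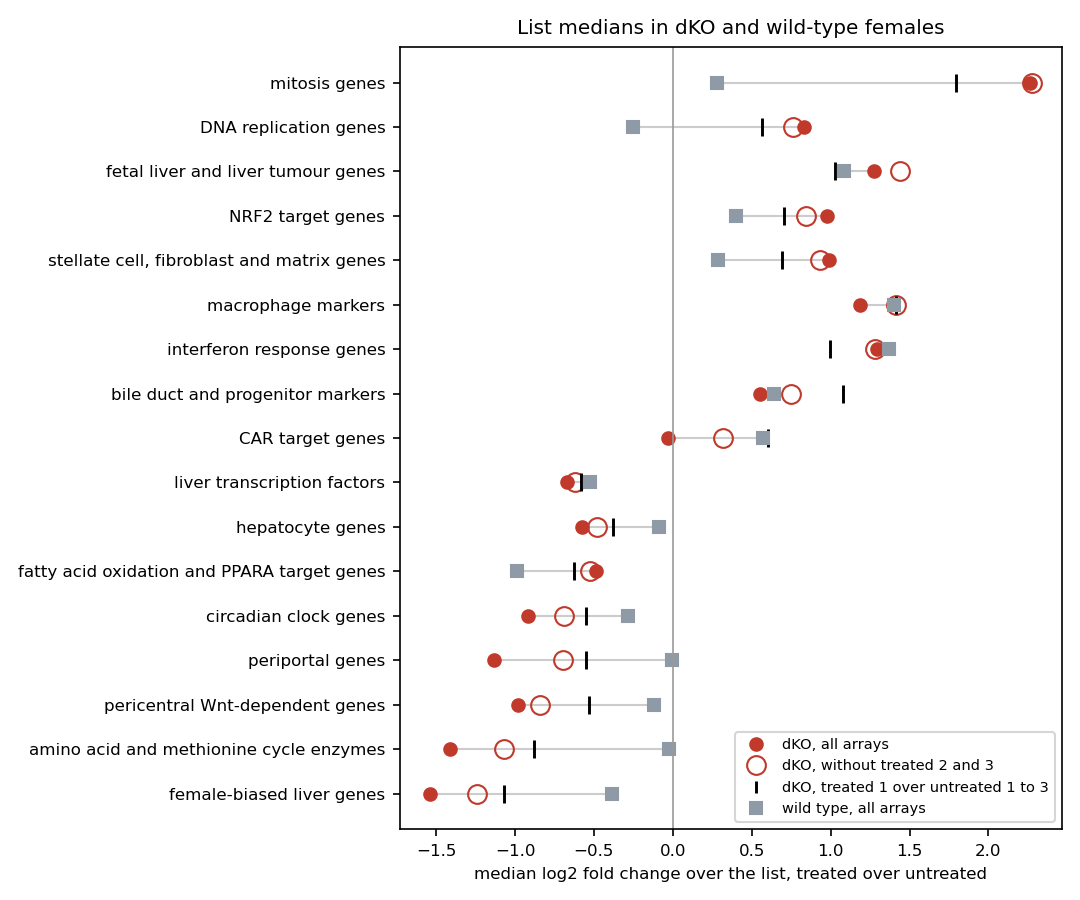
Median difference in log2 level, treated minus untreated, over each list in dKO females with all arrays (filled circles), without treated replicates 2 and 3 (open circles) and for treated replicate 1 against untreated replicates 1 to 3 (ticks), and in wild-type females (squares). The mitosis genes had a median of 2.27 in dKO females and 0.28 in wild type, while the interferon genes had 1.29 and 1.37.

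Of the genes with the largest interactions, Pnliprp1, a pancreatic lipase-related gene, had -4.42, -6.75, -4.03 and -5.07 in treated dKO females, against -6.04, -6.59, -4.87 and -5.22 in untreated ones, while its mean was 4.2 in treated and -6.09 in untreated wild-type females (interaction -9.68, adjusted p = 9.6e-06; 0.012 without replicate 4). Tmeff2, a transmembrane protein, had a mean of 1.73 in treated and -6.29 in untreated wild-type females, and differed by 0.19 ± 0.50 in dKO females (interaction -7.84, adjusted p = 4.1e-06; 0.0072 without replicate 4). Sult1e1, the oestrogen sulfotransferase, had 6.59, 2.19, 7.10 and 6.02 in treated dKO females, against 6.94, 6.50, 5.92 and 6.46 in untreated ones, and a mean of 6.14 in treated and -1.46 in untreated wild-type females. Untreated dKO females thus already had the Sult1e1 level of treated wild-type females, and the interaction was -8.58 (adjusted p = 7.3e-05; 0.023 without replicate 4). Mbl2 had a mean of 8.67 in treated and 8.72 in untreated wild-type females and an interaction of -3.15 (adjusted p = 5.9e-08; 0.00045 without replicate 4). The other 3 genes that passed without replicate 4, chosen after their values were seen, were C730027H18Rik, which was at background on all 4 untreated dKO arrays and rose at least 11.7-fold in treated ones (wild type 0.23 on the log2 scale), Prtn3, a neutrophil protease (2.38, wild type -0.19), and AK168746, which was at background on all untreated arrays of both genotypes and rose at least 7.18-fold in wild type and at least 1.06-fold in dKO females (adjusted p = 0.0209; 0.0948 without replicate 4).

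The rest of the 12 largest interactions, ranked by fitted value, did not pass without replicate 4. Those more positive in dKO females were Fgf21 (6.71) and Serpina7 (6.44), and 4 genes at background on all untreated dKO arrays, for which the interaction has no size: ENSMUST00000098718, Slc7a11, Prnd and Hsd3b5. Hsd3b5, a male-biased steroid dehydrogenase, stood at background in untreated dKO females and fell by 5.18 in wild-type females. Prnd, doppel, was at background on all untreated dKO arrays and on all wild-type female arrays, and rose at least 8.39-fold in treated dKO females. Those more negative in dKO females were Cfd (-10.18), Sult2a7 (-7.84) and NAP025923-1, which was at background on all treated dKO arrays, besides Pnliprp1, Sult1e1 and Tmeff2. Cfd and NAP025923-1 were high on the same untreated dKO arrays (NAP025923-1 had -2.24, -7.64, 0.53 and -0.71 there).

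The authors' deposited table of fold changes was set beside these values. Over 19014 genes matched by probe, its fold for the same comparison, on a log2 scale, correlated with the differences here at r = 0.986 across genes, which are not independent replicates, and 99.8% of the 7208 genes called had its sign. In the authors' deposited table, 12884 of its 34470 rows were under a 5% false discovery rate.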

How the data were processed

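The files are Agilent Feature Extraction output, 1 per array, with 43379 non-control spots; the deposited intensity (processed signal) is background-subtracted per the file headers. The headers name Feature Extraction 10.5.1.1 and the submitters' processing notes 9.53. RNA was amplified with a NuGEN kit and labelled with Cy3, per the labels' protocols. Here the log2 of each deposited intensity was taken, the array's 75th percentile over non-control spots subtracted, outlier spots dropped, repeated spots averaged, dim probes removed (28051 of 41174 were above background on 4 or more of the 24 arrays), and the brightest probe taken per gene (19035 genes, 15427 with a RefSeq symbol). Of the probes 26795 were named through an accession, 5122 by symbol and 929 by synonym, and 8328 kept the file's name. No spot was saturated, 78 to 122 spots an array were outliers on the 8 dKO arrays, and their 75th percentile was 578 to 960. Spots above background were 65.0% to 68.4% on treated and 50.4% to 64.6% on untreated dKO arrays. The number of arrays limits the precision.

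A single limma fit (3.58.1, R 4.3.3) of 6 group means over 24 arrays gave both treatment contrasts and their interaction, with Benjamini-Hochberg adjustment. It was first checked on simulated arrays, drawn independently with the spread of the untreated dKO group. That check does not cover the wider spread of the treated dKO arrays or a replicate 4 that depends on the others. Where a group was at background on all its arrays, the fold is a lower bound, computed against the lowest signal well above background on each array or the gene's own, whichever was higher. The arrays lay on 6 slides of 4, of which 3 hold both dKO groups. Motifs were counted with Python 3.11.15. The authors' deposited table gives signed fold changes and false discovery rates, which are scores per probe named by the file headers; their method is not stated there, and they were used only for comparison.

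The members and gene lists were chosen with earlier results of these data known. Named genes are the 12 highest and 12 lowest by fold among calls with separated groups, the 6 highest and 6 lowest interactions, the first 3 measured and up to 3 most changed members of a list, and a fixed panel; Plk1, Cdc20, Mki67, Ly6d, Akr1b7, Cyp3a11, Ehhadh and Igf1 were added after their values were seen. Some genes that this rule names are not reported here.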

Additional observations from a re-analysis of the deposited data

Results flagged for a closer look

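Of 286 groups of 4 levels tested for an array that stands apart, 12 were flagged, near the share of 1 in 20 that chance gives. Treated replicate 3 stood apart for Cyp4a10 (2.77), Htra4 (-5.55), Il6 (-5.39) and the mean level of the macrophage markers (1.55), and treated replicate 2 for the mean of the imprinted fetal genes (-1.22). Among untreated dKO arrays, replicate 1 stood apart for Cd3e (-2.84) and Prtn3 (-5.74), replicate 2 for the means of the periportal genes (5.0) and of the simple keratins (-0.43), replicate 3 for C730027H18Rik (-6.55) and for the mean of the glucose metabolism genes (3.10), and replicate 4 for Hsd3b5 (-7.30). C730027H18Rik and Hsd3b5 were at background on these arrays.

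The response of these genes differed between dKO and wild-type females by the limma interaction (adjusted p under 0.05 with all arrays), given as the dKO minus the wild-type log2 difference. Without replicate 4 only Mbl2, Pnliprp1, Tmeff2, Sult1e1, C730027H18Rik, Prtn3 and AK168746 passed. Of growth and cell cycle genes, Ccnb1 differed by 3.58, Prc1 by 2.63, Hmmr by 2.56, Rrm2 by 2.78, Uhrf1 by 2.20, H19 by 4.18 and Igf2 by 4.13. Of stress and detoxifying genes, Slc7a11 differed by 6.28, Mgst2 by 4.68, Cbr3 by 3.89 and Fgf21 by 6.71. Of duct, matrix and other induced genes, Spp1 differed by 3.14, Ggt1 by 2.81, Col1a1 by 2.13, Serpina7 by 6.44 and Prnd by 5.37. Prtn3 differed by 2.56, C730027H18Rik by 4.39 and ENSMUST00000098718 by 8.46. Hsd3b5, which fell in wild-type females and was at background in untreated dKO females, differed by 5.28. More negative in dKO females were the hepatocyte genes Mbl2 (-3.15), Sult1e1 (-8.58), Sult2a7 (-7.84), Cyp2b10 (-2.66), Cyp4a10 (-1.35), Ehhadh (-0.95), Ghr (-1.12) and Slc1a2 (-3.71), the sinusoidal Clec4g (-1.66), and the fat cell genes Cfd (-10.18) and Adipoq (-5.50). The same held for Pnliprp1 (-9.68), Tmeff2 (-7.84), NAP025923-1 (-8.94), AK168746 (-4.03), 1810046K07Rik (-4.93), Lrrc19 (-4.78) and TC1691788 (-3.48). Ccnb1, Slc7a11, Prnd, C730027H18Rik, ENSMUST00000098718, Hsd3b5, AK168746, Ggt1, NAP025923-1, Adipoq and TC1691788 were at background on every array of at least 1 of the 4 female groups, so these fitted values do not measure the size of their difference. Cfd, Adipoq and NAP025923-1 rest on untreated dKO arrays that differed widely among themselves.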

How the results depend on the processing

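Of 87 named genes called in dKO females none changed direction under the alternatives that kept it (54 of them under the filter on all 24 arrays). Without treated replicates 2 and 3 together 2 calls were lost (Foxa2 and Il6), with only the groups compared 17, without replicate 4 of every group 23, with treated replicate 1 alone 47, within the 3 slides that hold both groups 28 and with array position as a covariate 64. All of these fits have fewer arrays, except the one with array position, which has a covariate tied to treatment. The cause of the lost calls was not tested. The settings that left out the same replicate of every group were chosen after seeing the data.

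The 7208 dKO calls became 4327 with only the 8 arrays compared, 2468 within slides, 255 with array position, 2522 without replicate 4 and 653 with treated replicate 1 alone. Leaving out 1 dKO array gave 5551 (without treated replicate 2) to 8343 (without treated replicate 3). The 3268 wild-type calls became 1861 with normexp background correction, 284 within slides, 1961 with array position and 396 without replicate 4, and ranged from 1929 (without treated replicate 3) to 2984 when 1 array was left out. The 981 interaction calls became 474 with only the groups compared, 419 with normexp, 559 with no filter on dim probes, 1481 with slide in the model, 4 with array position, 7 without replicate 4 and 10 when treated dKO replicates 2 and 3 were left out as well. Without replicate 1, 2 or 3 of every group the calls were 5638, 4588 and 8216 in dKO, 1482, 3314 and 2461 in wild type, and 150, 526 and 2103 for the interaction. With 1 array left out, interaction calls ranged from 460 (without treated dKO replicate 4) to 2402 (without treated dKO replicate 3). Leaving out 1 other array gave lower counts for wild-type treated replicate 1 (559) or 4 (600), wild-type untreated replicate 1 (627) or 4 (572) or untreated dKO replicate 4 (550). Normexp gave 4978 dKO calls. With the replicate number as a block the counts were 7002 in dKO, 2999 in wild type and 744 for the interaction; same-numbered dKO arrays deviated together with correlations of 0.149, -0.098, -0.036 and 0.117, so the numbers were not taken as pairs.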

Other observations

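Genes of the endoplasmic reticulum stress response rose in 9 of 22 measured cases and fell in 2 in treated dKO females (median difference 0.41, against -0.07 over all genes), 9 and 3 without treated replicates 2 and 3, and 3 and 1 without replicate 4. Their mean level was 2.21, 2.58, 2.09 and 2.41 on treated arrays 1 to 4, against 1.72, 1.68, 1.81 and 1.73 on untreated arrays, with no overlap. In wild-type females 2 of the 22 rose and 3 fell. Genes of cholesterol and fatty acid synthesis were divided, with 8 of 30 higher and 7 lower, and without treated replicates 2 and 3 they were 1 higher and 7 lower, and without replicate 4, 3 lower. Of 21 regulators of the Wnt pathway 3 rose and 9 fell (median -0.59), 2 and 5 without treated replicates 2 and 3, and 2 and 3 without replicate 4. Of 23 immediate early genes and growth factors 6 rose and 6 fell, 6 and 3 without treated replicates 2 and 3, and 3 and 2 without replicate 4.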
